A study of Rattus norvegicus with 5 samples.

Results

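The genes described here encode heat shock proteins and chaperones: rows of the count table whose symbols begin Hspa, Hspb, Hsp90, Dnaja, Dnajb or Dnajc followed by a number, together with Hsph1, Hspd1 and Hspe1. There were 70 such genes among the 17321 in the table, picked by name, though this choice was made with earlier results of these data known. Of these, 8 were small heat shock protein genes (Hspb) and 62 belonged to the other families. Total RNA was sequenced from lumbar (L4-L6) dorsal horn, the part of the cord that receives sensory input from the hindlimb. Both groups were Sprague Dawley rats sampled on day 9 after surgery. The first, CCI, had 3 libraries. These letters stand for chronic constriction injury, loose ligatures around the sciatic nerve that model neuropathic pain. The second, SHAM, had 2 libraries. The labels name no transgene, drug or age, and do not say whether a library is 1 animal or a pool, so the tests reflect only how far these libraries vary, which may be technical.

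Chaperones bind unfolded or partly folded proteins and either hold them or help them to fold. HSP70 proteins (Hspa genes) cycle between ATP-bound and ADP-bound states: J-domain proteins (Dnaj genes) bring the client and start the cycle, HSP110 proteins release ADP, and HSP90 proteins take over late folding of kinases and receptors. Small heat shock proteins form oligomers that hold unfolded clients without ATP. Under proteotoxic stress the transcription factor HSF1 binds heat shock elements and raises many of these genes, while a separate response raises the chaperones of the endoplasmic reticulum (ER). In the spinal cord, HSPB1 and HSPB8 are known from motor neurons, and mutations in either human gene cause inherited motor neuropathy.

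Summed estimated counts ran from 20053400 to 23673200 per library (rounded). Ribosomal RNA took 15.98% of counts in CCI 3, and 2.18% to 2.71% elsewhere. Fibroblast markers summed to 155, 842 and 701 CPM (counts scaled to a common library size) in CCI 1, CCI 2 and CCI 3, against 165 and 202 CPM in SHAM 1 and SHAM 2, and Schwann cell markers to 186, 374 and 705 CPM in CCI against 176 and 192 CPM in SHAM. CCI 2 and CCI 3 stood apart from the other 3 libraries in markers of connective tissue and nerve sheath. All 8 neuronal markers were present in every library, and summed to 3294, 2986 and 3187 CPM in CCI, against 3880 and 3604 CPM in SHAM. None of the 8 was called, 4 had a log2 fold change above 0 and 4 below, and the lowest was Tubb3 at -0.68 (SE 0.22, adjusted p = 0.185).

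No heat shock or chaperone gene passed the test between CCI and SHAM. Of the 70 genes, 65 had 10 or more counts in at least 2 libraries and were tested with edgeR's quasi-likelihood test. A call needed a 1.5-fold difference or more and a Benjamini-Hochberg adjusted p no higher than 0.05. It was met by 0 of the 65 and by 384 of all 13511 tested genes, a share of 2.84% (2.58% higher and 0.259% lower in CCI). At an unadjusted p under 0.05 there were 8 chaperone genes, 1 higher and 7 lower in CCI, where all tested genes gave 15.9% (9.64% higher and 6.31% lower). DESeq2 and the likelihood ratio test called 1 of the 65 each, Dnajc22 (4.54% and 4.78% of all genes called), and limma-voom called none (2.45%). Without CCI 1 the quasi-likelihood test also called Dnajc22 (5.69% of all genes called), as did limma on the deposited TPM table with a pseudocount of 0.5 (2.91%) or 0.1 (3.03%). No chaperone gene was called with RLE scaling (2.75%), upper-quartile scaling (2.94%), filterByExpr (2.85%), no low-count filter (2.66%) or ribosomal RNA left out (2.8%). The same held without CCI 2 (3.35%), CCI 3 (2.33%), SHAM 1 (0.528%) or SHAM 2 (0.653%).

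Most differences were small. For 51 of the 65 the 95% interval of the difference lay wholly inside 1.5-fold in either direction, or 78.5%, where all tested genes gave 58.6%. In simulated counts of the same depth and design, 32.8% of 1.5-fold differences were called, as were 76.1% at 2-fold and 95.5% at 4-fold. The changed genes were drawn from tested genes with a mean CPM of at least 1, not from chaperone genes alone. These shares therefore do not cover tested genes of lower level, such as Hspb2 and Hspb7. A call needs an estimated fold of at least 1.5, so many true 1.5-fold differences miss it by the estimate alone. The median log2 fold change was 0.04 over the 6 tested Hspb genes and -0.08 over the 59 other tested genes, beside 0.01 over all genes. Of the 59, 43 had a log2 fold change below 0, or 72.9%, where all tested genes gave 48%. All 3 CCI libraries lay below both SHAM libraries for 17 of the 65, or 26.2% (18% of all genes), and above both for 3 (18.6% of all genes). The 43 became 35 without SHAM 1 and 45 without CCI 2 or without SHAM 2. In bulk tissue, fewer cells of a type and less RNA per cell cannot be told apart.

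**Figure D1:**
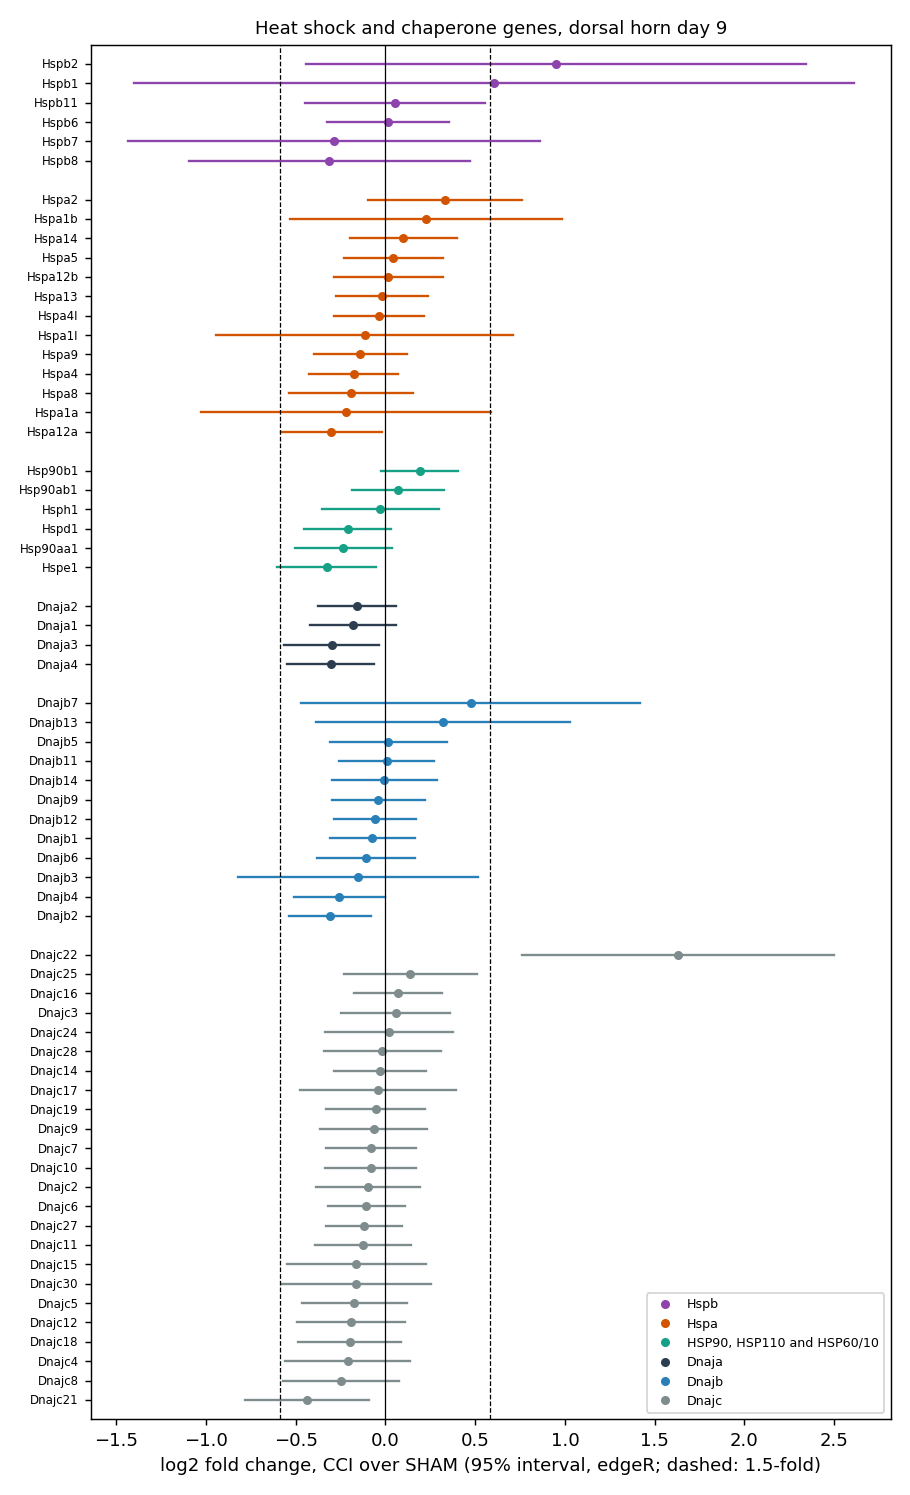
Log2 fold change of CCI over SHAM for the 65 tested heat shock and chaperone genes, grouped by family, with 95% intervals from edgeR; dashed lines mark 1.5-fold. Intervals of 51 genes stay between the dashed lines, and Dnajc22 is the gene with the largest value, 1.63.

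Among the small heat shock proteins, Hspb1 varied more between libraries than any other tested chaperone gene with a mean of at least 10 CPM. Hspb1, which encodes HSP27, a chaperone that also binds actin and intermediate filaments, stood at 86.4, 19.6 and 41.9 CPM in CCI 1, CCI 2 and CCI 3, against 32.6 and 32.1 CPM in SHAM 1 and SHAM 2. CCI 1 was the highest and CCI 2 the lowest of all 5, so the groups overlapped. Its log2 fold change was 0.61 (SE 0.71, 95% interval -1.40 to 2.61, adjusted p = 0.726). It was -0.08 without CCI 1 and 0.99 without CCI 2. These levels rest on 1867, 493 and 791 counts in CCI and on 718 and 642 counts in SHAM, so counting error is small beside the gap between libraries. Within CCI the highest library held 4.41 times the lowest. Of the 9721 tested genes with a mean of at least 10 CPM, 29 had a ratio that large, and the median ratio was 1.19. Hspb1 was the 1 gene of these 9721 whose level in CCI 1 was over 2 times that in every other library. CCI 1 is the library where Hspb1 was highest, and the same count was not made for the other libraries.

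The Hspb1 promoter window is shown because this gene carries the widest spread; capitals mark 2 copies of the pair of inverted units that makes up a heat shock element (GAANNTTC). The sequence is from RefSeq, build GRCr8, chr12:26432252-26432551, minus strand, 5′ to 3′, from 250 bases before the annotated start of the gene to 50 after it. The first copy begins at position -129 from the start.
Hspb1: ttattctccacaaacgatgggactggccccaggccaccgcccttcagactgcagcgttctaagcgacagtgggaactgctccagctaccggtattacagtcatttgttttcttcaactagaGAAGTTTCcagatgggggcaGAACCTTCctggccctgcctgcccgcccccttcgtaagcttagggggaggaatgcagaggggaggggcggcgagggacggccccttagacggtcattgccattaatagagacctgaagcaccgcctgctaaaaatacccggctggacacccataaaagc

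Hspb8, whose product acts with the co-chaperone BAG3 in the removal of misfolded proteins, followed the same order within CCI. It stood at 47.7, 23.0 and 32.7 CPM in CCI 1, CCI 2 and CCI 3, against 48.5 and 36.9 CPM in SHAM 1 and SHAM 2. The ranges overlapped, with CCI 2 and CCI 3 below both SHAM libraries and CCI 1 between them. The log2 fold change was -0.31 (SE 0.31, adjusted p = 0.667), -0.62 without CCI 1 and 0.15 when CCI 2 and CCI 3 were both left out, an alternative chosen after the data were seen. Its ratio of highest to lowest CCI library was 2.08, a value reached by 1.70% of the 9721 genes. The 8 motor neuron markers summed to 380, 131 and 244 CPM in CCI 1, CCI 2 and CCI 3, against 838 and 578 CPM in SHAM 1 and SHAM 2. Of these 8, 5 passed the test, all lower in CCI, where 0.259% of all tested genes were called lower. None of the 8 was at 0 in every library. Prph, a filament gene of motor and sensory neurons, is 1 of the 8 and made up most of the sum in CCI 1, with 235, 56.9 and 131 CPM in CCI, against 302 and 238 CPM in SHAM. Without Prph the sum was 145, 74.0 and 113 CPM in CCI, against 536 and 340.1 CPM in SHAM. Within CCI, 6 of the 8 markers were highest in CCI 1 and lowest in CCI 2, while Mnx1 was highest in CCI 3 and Isl1 lowest in CCI 3. Atf3, a transcription factor gene known to rise in injured neurons and added here after its values were seen, gave 18.8, 5.60 and 16.2 CPM in CCI, against 0.909 and 1.10 CPM in SHAM. Hspb1, Hspb8, Atf3 and the motor neuron sum, with or without Prph, were highest in CCI 1 and lowest in CCI 2 within CCI, but Hspb1 in CCI 1 lay above both SHAM libraries while the motor neuron sum in CCI 1 lay below both. Few orders of the CCI libraries are possible, and the share of all tested genes in this order was not counted. The part of motor neuron content in the Hspb1 and Hspb8 levels was not tested. The motor neuron sum also differed between the SHAM libraries, and how far dissection of the dorsal horn set it in each library was not tested.

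**Figure D2:**
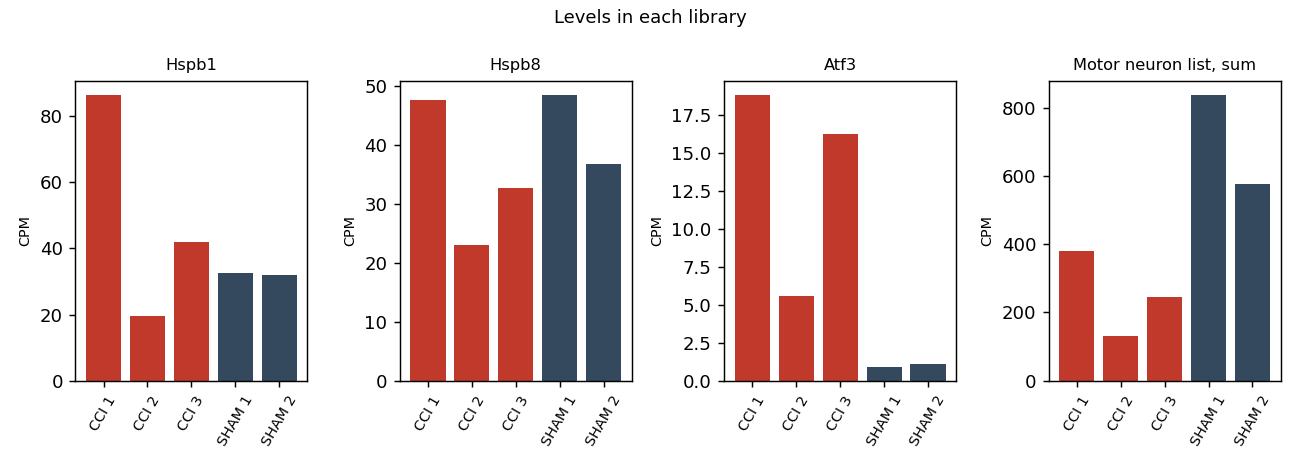
Level in CPM of Hspb1, Hspb8, Atf3 and the summed motor neuron markers in each library (bars; CCI red, SHAM dark). Within CCI, CCI 1 is highest and CCI 2 lowest in all 4 panels; Hspb1 reaches 86.4 CPM in CCI 1.

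The other small heat shock protein genes were lower in level, and none passed the test. Hspb6, whose product binds actin regulators in muscle, was 10.2, 10.2 and 10.6 CPM in CCI, against 9.64 and 10.8 CPM in SHAM, with overlapping ranges (log2 fold change 0.02, SE 0.15, 95% interval -0.32 to 0.36). Hspb11, which despite its name encodes the cilium transport subunit IFT25, was 6.48, 7.35 and 4.93 CPM in CCI, against 5.73 and 6.35 CPM in SHAM (0.06, SE 0.22). Hspb2 and Hspb7, both known from heart and skeletal muscle, rest on few counts. Hspb2 had 7, 16 and 11 counts in CCI, against 3 and 8 in SHAM (log2 fold change 0.95, SE 0.61, adjusted p = 0.479), and Hspb7 had 6, 8 and 10 in CCI, against 10 and 9 in SHAM (-0.29, SE 0.51). Hspb3 (4, 0 and 0 counts in CCI, against 2 and 6 in SHAM) and Hspb9 (5, 6 and 5 in CCI, against 5 and 3 in SHAM) were too low to test. None of the 6 tested Hspb genes had an unadjusted p under 0.05, and the likelihood ratio test, DESeq2 and limma-voom called none. The 95% interval lay inside 1.5-fold for 2 of the 6, so a change of that size was not bounded for the other 4. Cryab, the alpha-crystallin B gene and a small heat shock protein outside the naming rule, gave 53.9, 34.7 and 49.4 CPM in CCI, against 55.1 and 81.0 CPM in SHAM. CCI lay below SHAM in every library, at -0.57 on the log2 scale (SE 0.23, adjusted p = 0.30). Oligodendrocytes express Cryab, and their 8 markers summed to 32399, 28056 and 26929 CPM in CCI, against 38405 and 37697 CPM in SHAM. All 8 lay below SHAM in every CCI library (18% of all tested genes did), with a median log2 fold change of -0.37. All 8 also had an unadjusted p under 0.05 (6.31% of all tested genes did, lower in CCI). None of the 8 was called, and none was at 0 in every library. The part of oligodendrocytes in the Cryab level was not tested.

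**Figure D3:**
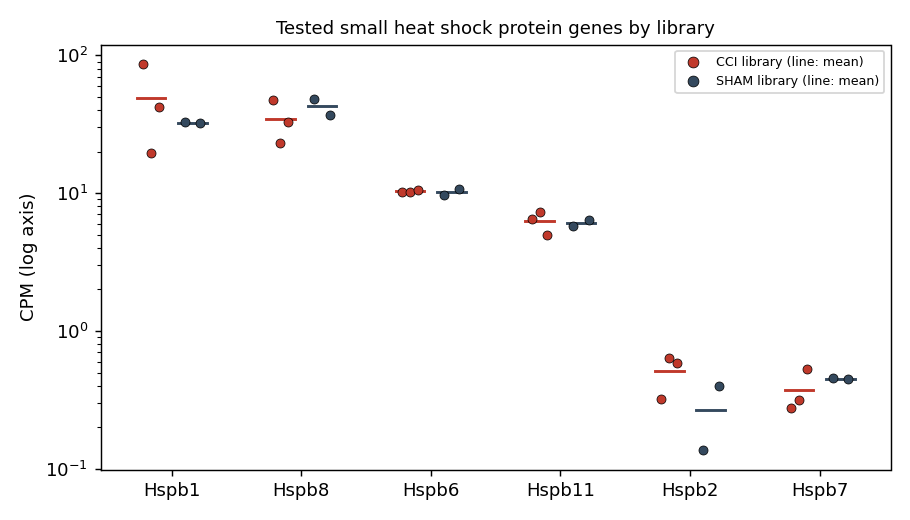
CPM on a log axis of the 6 tested small heat shock protein genes, 1 point per library and a line at the group mean (3 CCI, 2 SHAM). Hspb1 and Hspb8 spread widely within CCI, from 19.6 to 86.4 and from 23.0 to 47.7 CPM, while Hspb6 stays between 10.2 and 10.6 CPM.

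In the HSP70 family (13 Hspa genes, all tested) no gene passed, and 8 of the 13 had a log2 fold change below 0. Hspa8, the constitutive HSC70, was the most abundant chaperone gene on the deposited per-length scale. Its level there was 1997, 1797 and 1458 TPM (a level per transcript length, as rescaled by the authors) in CCI, against 2007 and 1926 TPM in SHAM. The heat-inducible genes lay far below it: Hspa1b was 4.27, 5.17 and 8.52 TPM in CCI, against 5.68 and 4.31 TPM in SHAM, and Hspa1a was below 1 TPM in every library of both groups. The log2 fold change in counts was -0.19 for Hspa8 (SE 0.15, adjusted p = 0.563), 0.23 for Hspa1b (SE 0.31, adjusted p = 0.755) and -0.22 for Hspa1a (SE 0.36). CCI 3 had the highest Hspa1b level and the lowest Hspa8 level of the 5 libraries, and also the highest share of ribosomal RNA. The part of that share, or of RNA quality, in these levels was not tested. Without CCI 3 the Hspa1b value was -0.11. Hspa1a and Hspa1b are near-identical copies with fractional counts, so each alone is uncertain; their sum had a log2 fold change of 0.20. Hspa1l also had fractional counts.

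The Hspa8 promoter is shown because it holds 2 copies of the longer heat shock element, in which 3 units (GAA, TTC, GAA, or the complement) follow each other with any 2 bases between them. Capitals mark these and the shorter 2-unit elements. It is from RefSeq, build GRCr8, chr8:50080264-50080563, plus strand.
Hspa8: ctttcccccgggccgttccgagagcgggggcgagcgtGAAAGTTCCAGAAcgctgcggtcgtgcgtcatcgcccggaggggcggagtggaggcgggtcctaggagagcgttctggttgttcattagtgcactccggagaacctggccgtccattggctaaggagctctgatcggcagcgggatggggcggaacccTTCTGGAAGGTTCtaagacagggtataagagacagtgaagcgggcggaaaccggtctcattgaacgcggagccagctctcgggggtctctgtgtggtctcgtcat

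Hspa2, best known from testis, had the most positive value of the Hspa genes, at 58.0, 38.4 and 41.8 CPM in CCI, against 33.9 and 39.3 CPM in SHAM. CCI 2 fell inside the SHAM range, and the log2 fold change was 0.33 (SE 0.18, adjusted p = 0.424). Hspa12a, an atypical HSP70, was 279, 220 and 271 CPM in CCI, against 332 and 300 CPM in SHAM. Every CCI library lay below SHAM (log2 fold change -0.30, SE 0.12, adjusted p = 0.284). Among the nucleotide exchange factors of HSP70, Hspa4 gave -0.18 (SE 0.11, adjusted p = 0.465), with CCI below SHAM in every library. Hsph1, the main HSP110 and a strong target of HSF1, was 277, 218 and 309 CPM in CCI, against 269 and 277 CPM in SHAM, and the groups overlapped (-0.03, SE 0.14, 95% interval -0.35 to 0.30).

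The cytosolic HSP90 genes had values of opposite sign, and neither passed the test. Hsp90aa1, the inducible form, was 1838, 1825 and 1665 CPM in CCI, against 2214 and 1962 CPM in SHAM, with no overlap (log2 fold change -0.23, SE 0.12, adjusted p = 0.379). Hsp90ab1, the constitutive form, was 1113, 970 and 1004 CPM in CCI, against 955 and 1005 CPM in SHAM, with overlap (0.07, SE 0.11, adjusted p = 0.786). On the per-length scale Hsp90aa1 averaged 811 ± 40.2 TPM in CCI (SD, n = 3) and 936 ± 83.6 TPM in SHAM (SD, n = 2), above Hsp90ab1 at 572 ± 37.1 TPM in CCI and 534 ± 16.8 TPM in SHAM.

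**Figure D4:**
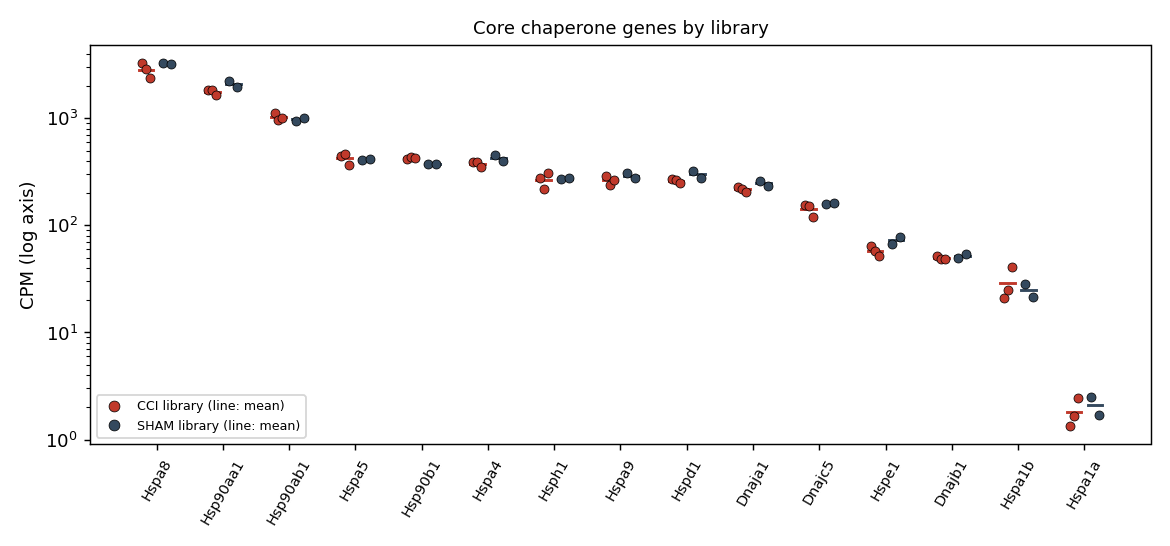
CPM on a log axis of 15 core chaperone genes, 1 point per library and a line at the group mean (3 CCI, 2 SHAM), ordered roughly by level. No gene of the 15 passed the test, and levels run from 2356 to 3303 CPM for Hspa8 to 1.34 to 2.50 CPM for Hspa1a.

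The mitochondrial chaperonin genes were both lower in every CCI library, without passing the test. Hspd1 (HSP60) was 270, 263 and 249 CPM in CCI, against 325 and 278 CPM in SHAM (log2 fold change -0.21, SE 0.11, adjusted p = 0.380). Hspe1, which encodes HSP10, the lid of the HSP60 ring, was 64.1, 57.7 and 51.8 CPM in CCI, against 67.7 and 77.5 CPM in SHAM (-0.33, SE 0.12, adjusted p = 0.227). Hspa9, the mitochondrial HSP70, overlapped between groups (-0.14, SE 0.11). Dnaja3, its J-domain partner, was 81.0, 74.0 and 65.3 CPM in CCI, against 93.4 and 87.3 CPM in SHAM (-0.30, SE 0.12, adjusted p = 0.251), and has fractional counts. Hspd1 and Hspe1 lie head to head, and their promoter windows share 211 bases, which hold every heat shock element of the Hspe1 window (in capitals), so the motif is not counted in separate sequences. The Hspe1 window is shown for that reason (RefSeq, build GRCr8, chr9:64084077-64084376, plus strand; the Hspd1 window is chr9:64083988-64084287, minus strand).
Hspe1: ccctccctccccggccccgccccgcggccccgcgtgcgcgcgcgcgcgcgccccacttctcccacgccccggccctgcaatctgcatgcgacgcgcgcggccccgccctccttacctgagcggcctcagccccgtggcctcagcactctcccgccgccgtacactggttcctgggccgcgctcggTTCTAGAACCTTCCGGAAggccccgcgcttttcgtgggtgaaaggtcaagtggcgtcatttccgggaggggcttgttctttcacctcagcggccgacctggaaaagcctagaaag

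The ER chaperones did not pass the test either. Hsp90b1, the ER HSP90 known as GRP94, was 420, 431 and 427 CPM in CCI, against 371 and 376 CPM in SHAM. All CCI libraries lay above SHAM (log2 fold change 0.19, SE 0.10, 95% interval -0.03 to 0.41, adjusted p = 0.373). Hspa5, the ER HSP70 known as BiP, was 442, 466 and 369 CPM in CCI, against 412 and 413 CPM in SHAM, with overlap (0.04, SE 0.12, 95% interval -0.23 to 0.32). The ER J-domain genes Dnajb9, Dnajb11, Dnajc3 and Dnajc10 ran from -0.08 to 0.06. The Hspa5 promoter is shown because 1 copy of the ER stress element (CCAAT, any 9 bases, CCACG), in capitals, begins at position -43 from its start (RefSeq, build GRCr8, chr3:38452766-38453065, plus strand).
Hspa5: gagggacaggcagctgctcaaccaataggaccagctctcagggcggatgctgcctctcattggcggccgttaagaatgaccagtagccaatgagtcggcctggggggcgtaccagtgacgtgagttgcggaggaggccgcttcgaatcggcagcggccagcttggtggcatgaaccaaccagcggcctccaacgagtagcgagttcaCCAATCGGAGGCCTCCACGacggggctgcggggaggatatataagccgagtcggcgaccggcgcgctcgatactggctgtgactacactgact

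Of the 43 J-domain genes 40 were tested, and 31 of the 40 had a log2 fold change below 0 (48% of all tested genes). All 4 Dnaja genes, the type closest to bacterial DnaJ, lay below SHAM in every CCI library (18% of all tested genes did), with log2 fold changes from -0.30 to -0.16 and all 4 intervals inside 1.5-fold. Dnaja1, a cytosolic partner of HSC70, was 231, 221 and 203 CPM in CCI, against 261 and 235 CPM in SHAM (-0.18, SE 0.10, adjusted p = 0.438). Dnaja4 was 104, 92.6 and 89.2 CPM in CCI, against 121 and 114 CPM in SHAM (-0.30, SE 0.11, adjusted p = 0.207), and has fractional counts. In the Dnajb group, Dnajb1, the stress-inducible HSP40, was 51.4, 48.2 and 48.2 CPM in CCI, against 49.2 and 54.5 CPM in SHAM, with overlap (-0.07, SE 0.10, 95% interval -0.31 to 0.16). Dnajb2, a neuron-enriched gene whose human mutations cause motor neuropathy, was 148, 137 and 129 CPM in CCI, against 174 and 168 CPM in SHAM. Its groups did not overlap (-0.31, SE 0.10, adjusted p = 0.172). Dnajb13, a subunit of the radial spokes of motile cilia, was 33.9 CPM in CCI 3 and between 17.2 and 20.1 CPM in the other 4 libraries, with fractional counts.

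Dnajc22 came nearest to the threshold. It had 41, 54 and 36 counts in CCI, against 18 and 9 in SHAM, or 1.90, 2.14 and 1.91 CPM in CCI, against 0.818 and 0.450 CPM in SHAM. The CCI libraries lay close together and all above SHAM (log2 fold change 1.63, SE 0.38, 95% interval 0.76 to 2.50, adjusted p = 0.0613). The adjusted p was 0.00462 with the likelihood ratio test, 0.0391 with DESeq2, and between 0.0469 and 0.362 when single libraries were left out. Its role is known mainly from Drosophila, where the counterpart Wurst takes part in clathrin-mediated endocytosis. The synaptic members differed little: Dnajc5, the cysteine string protein of synaptic vesicles, was 154, 152 and 119 CPM in CCI, against 157 and 162 CPM in SHAM (-0.17, SE 0.13, adjusted p = 0.539). Dnajc6, the clathrin-uncoating factor auxilin, lay below SHAM in every CCI library (-0.11, SE 0.09, adjusted p = 0.614). Dnajc21, a factor of ribosome assembly, had the lowest value, at 28.4, 24.6 and 20.6 CPM in CCI, against 36.1 and 30.3 CPM in SHAM. Every CCI library lay below SHAM (-0.44, SE 0.15, adjusted p = 0.201). Dnajc25, the other tested J-domain gene wholly above SHAM, had a log2 fold change of 0.14 (SE 0.16). The remaining tested Dnajc genes lay between -0.25 and 0.07. Dnajb8 and Dnajc5g had no count in any library, which allows up to 3 counts over all 5 libraries or 0.0279 CPM (counting error only), and Dnajc5b had 4 to 12 counts.

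Promoter windows in the RefSeq table (build GRCr8) matched 55 of the 70 genes by symbol. Among the inducible genes, Hspa1b and Hsp90aa1 had no window, and the Hspa1a window held none of the motifs below. The motif classes therefore do not separate HSF1 targets from other genes. The 2-unit heat shock element was searched as GAANNTTC or TTCNNGAA, both of which read the same on either strand, and was present in 16 of the 55, or 29.1%, against 15.9% of 33469 promoter windows. The 3-unit element, which contains both shorter forms, was present in Dnaja1, Hspa8, Hspd1, Hspe1 and Hsph1, or 9.09%, against 0.798% of all windows. Hspd1 and Hspe1 hold their elements in the same shared bases, so both heat shock element counts include that sequence for each gene. The ER stress element, searched on both strands, was present in Hspa5, Hsp90b1 and Dnajc3, or 5.45%, against 0.0657%. The median log2 fold change was -0.19 over the 5 genes with a 3-unit element, -0.09 over 10 tested genes with a 2-unit element only, 0.06 over the 3 with an ER stress element and -0.06 over 33 with none. None of the 51 passed the test. A match is a run of letters and does not show binding, and no match says only that these letters are not in the window.

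**Figure D5:**
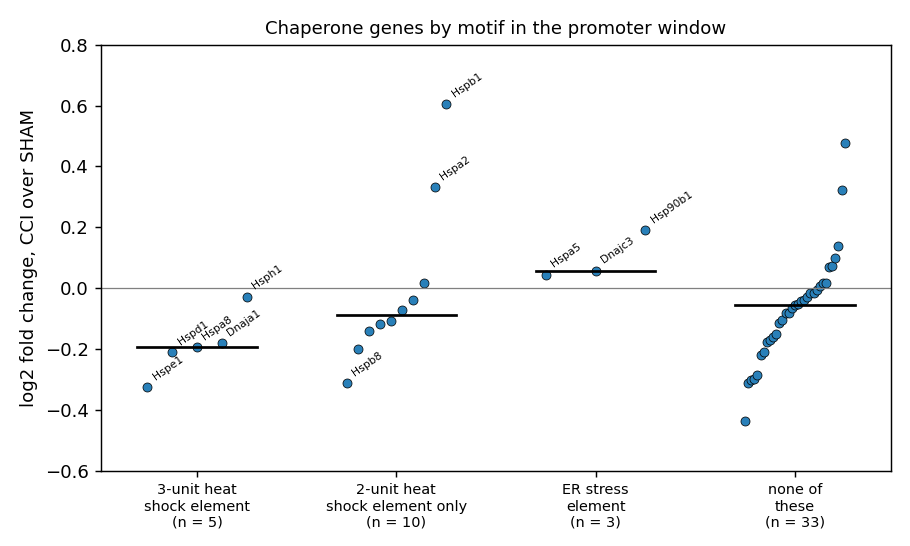
Log2 fold change of CCI over SHAM (vertical axis) for the 51 tested genes with a promoter window, by the motif found there; 1 point per gene, line at the median. The 5 genes with a 3-unit heat shock element lie between -0.33 and -0.03, and the 3 with an ER stress element between 0.04 and 0.19.

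Co-chaperones and regulators outside the naming rule gave few calls, read against the same 2.84% of all tested genes. Counts at an unadjusted p under 0.05 are read against 15.9% of all tested genes (9.64% higher and 6.31% lower). In the HSP70 co-chaperone, HSP90 co-chaperone and TRiC lists such genes were all lower in CCI. Hsf1, the master regulator, was 23.97, 20.4 and 23.5 CPM in CCI, against 19.4 and 24.5 CPM in SHAM, with overlap (log2 fold change 0.04, SE 0.14, adjusted p = 0.907) and fractional counts. None of 6 heat shock factor and regulator genes passed (Hsf4 -0.33, Hsbp1l1 -0.50; median -0.03). None of 14 HSP70 co-chaperone genes passed (Bag2 -0.39, Hspbp1 -0.28; median -0.13), with 3 at an unadjusted p under 0.05. None of 18 HSP90 co-chaperone genes passed (Ahsa1 -0.29, Cdc37l1 -0.31; median -0.15), with 2 at an unadjusted p under 0.05. None of 15 genes of the TRiC chaperonin and prefoldin passed (Pfdn1 -0.36, Pfdn6 -0.38; median -0.12), with 2 at an unadjusted p under 0.05. None of 8 mitochondrial protease and partner genes (Spg7 -0.19, Lonp1 -0.20; median -0.13) and none of 5 J-domain genes with other names (Samd13 1.03, Hscb -0.30; median -0.03) passed. The heat shock factor, mitochondrial and other J-domain lists had 0 genes at an unadjusted p under 0.05, and the likelihood ratio test, DESeq2 and limma-voom called 0 in each of these 6 lists.

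In the lists of other stress responses, 1 of 24 tested ER stress and ER folding genes rose and 0 fell (median 0.05), where 2.58% of all tested genes rose and 0.259% fell, so a single call is near the background. It was Edem1, whose product directs misfolded glycoproteins to degradation, at 68.4, 72.8 and 71.2 CPM in CCI, against 39.5 and 39.4 CPM in SHAM. The groups were far apart with little spread (log2 fold change 0.84, SE 0.10, adjusted p = 0.00257). Edem1 missed the threshold without SHAM 1 (adjusted p = 0.0763) and without SHAM 2 (adjusted p = 0.063), with the log2 fold change at 0.84 in both. Of 11 oxidative stress and metallothionein genes 2 rose and 0 fell (median 0.07), beside the same 2.58% and 0.259% of all tested genes. Slc7a11, the cystine transporter subunit that feeds glutathione synthesis, was 172, 274 and 227 CPM in CCI, against 102 and 113 CPM in SHAM (log2 fold change 1.06, SE 0.19, adjusted p = 0.029), with fractional counts. The metallothionein gene Mt1 was 14.5, 9.77 and 8.70 CPM in CCI, against 3.23 and 5.15 CPM in SHAM (1.40, SE 0.30, adjusted p = 0.0493). The Slc7a11 and Mt1 calls were both lost without CCI 3, SHAM 1 or SHAM 2, and Mt1 also with limma-voom, RLE scaling and the deposited TPM table. The summed markers of microglia and of astrocytes were higher in every CCI library than in SHAM. The 10 microglial genes summed to 1193, 1284 and 1135 CPM in CCI, against 359 and 406 CPM in SHAM. Of the 10, 8 were called higher (2.58% of all tested genes were), and none was at 0 in every library. The 8 astrocyte genes summed to 8712, 7334 and 7089 CPM in CCI, against 5326 and 5207 CPM in SHAM. Gfap was called higher, Slc7a10 was called lower and none was at 0 in every library. The astrocyte list did not rise as a whole: 4 of the 8 had a log2 fold change above 0 and 4 below (median 0.06). Its largest levels were those of Gfap and Aqp4, both above SHAM in every CCI library. Gfap, an astrocyte filament gene, was 5110, 3971 and 3493 CPM in CCI, against 2100 and 1981 CPM in SHAM, the same order within CCI as Mt1. The share of all tested genes in the order of Gfap and Mt1 was not counted. The part of either cell type in the Edem1, Slc7a11 and Mt1 levels was not tested.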

How the data were processed

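Groups follow the treatment label; library numbers come from accession order and never pair libraries. Estimated counts for each gene symbol were deposited by the authors, and the submitters' processing notes name kallisto 0.44.0, edgeR and rn6. A second table, TMM-scaled TPM per the labels, was deposited by the authors as a length-scaled signal; since its column sums differ it is used only for levels between genes and as an alternative. The gene annotation is not given in the sources used here. Estimated counts were rounded. Genes with 10 or more counts in at least 2 libraries (13511) entered edgeR 4.0.16 under R 4.3.3 (TMM, glmQLFit robust, glmQLFTest, two-sided, Benjamini-Hochberg over all 13511; called at adjusted p of at most 0.05 and fold of at least 1.5; 3 residual degrees of freedom). SE is the log2 fold change over the root of F. Alternatives used DESeq2 1.42.0 and limma 3.58.1. Genes named are all Hspb genes, 15 core genes, up to 6 non-overlapping genes in each direction with a mean CPM of at least 1, Hsf1, Cryab, and up to 4 called or the 2 lowest-p genes of each list; Dnajb13, Dnajc6, Hspa2 and the ER J-domain genes were added after their values were seen. Members and lists were chosen with earlier results of these data known. A count is fractional (beyond 0.001) where reads can be shared between rows, as in 8 of 65 tested members and 19.3% of tested genes; such genes are uncertain. The fit was tested on simulated data (13434 genes run, 13 unchanged genes called). Figures were drawn with matplotlib 3.10.9.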

Additional observations from a re-analysis of the deposited data

How the results depend on the processing

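The count of chaperone genes called was 0 with limma-voom, RLE or upper-quartile scaling, filterByExpr, no low-count filter, and ribosomal RNA rows left out. It was 1 with the likelihood ratio test, 1 with DESeq2, and 1 with each pseudocount on the deposited table, in each case 1 gene outside Hspb, Dnajc22; with single libraries left out it ranged from 0 to 1. With CCI 2 and CCI 3 both left out, chosen after the data were seen, it was 2, of which 1 was Hspb1 and 1 Hspa2. That fit has a single CCI library, assumed to vary like SHAM. The count over all genes was 646 with the likelihood ratio test, 614 with DESeq2, and between 71 (without SHAM 1) and 766 (without CCI 1) with single libraries left out. The median of the other chaperone genes stayed between -0.13 and -0.06 under every alternative. That of Hspb ranged from -0.077 to 0.11 with single libraries left out, lowest without CCI 2, where 5 Hspb genes were tested. The cause of these moves was not tested.

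Signs changed for 8 named genes when single libraries were left out: Hspb1, at 0.61 over all libraries, spanned -0.080 (without CCI 1) to 0.99 (without CCI 2), Hspb11 -0.077 to 0.19, Hspb6 -0.064 to 0.092, Hspa1a -0.48 to 0.090, Hspa1b -0.11 to 0.44, Hspa5 -0.024 to 0.13, Hsph1 -0.15 to 0.10 and Hsf1 -0.12 to 0.22. With CCI 2 and CCI 3 both left out, signs changed to -0.015 for Hspb6, 0.15 for Hspb8, -0.25 for Hspa1b and 0.0076 for Hsph1, while Hspb1 was 1.41. No paired analysis was possible because the labels give no replicate numbers. Most simulated 1.5-fold differences were missed with 3 CCI and 2 SHAM libraries. The 1.5-fold cutoff itself removes many of them, so that share does not measure the effect of library number alone.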

Other observations

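Summed over all 70 genes, chaperone transcripts made up 11138 ± 836 CPM in CCI (SD, n = 3) and 12175 ± 457 CPM in SHAM (SD, n = 2). By library the sums were 11971, 11143 and 10300 CPM in CCI, against 12498 and 11852 CPM in SHAM, so CCI 1 lay inside the SHAM range. The 8 Hspb genes summed to 152, 61.3 and 91.5 CPM in CCI, against 97.4 and 87.4 CPM in SHAM. The 4 Dnaja genes summed to 559, 535 and 493 CPM in CCI, against 632 and 595 CPM in SHAM, with no overlap.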
